A study of Mus musculus with 7 samples.

Results

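The actin and cell migration machinery of CD4+ T cells was followed here through 48 named genes, from GTPases such as Rac1 and Cdc42 to actin-binding proteins, myosins and the Rap1 pathway. Each gene was read at 1 Affymetrix probe set, the one naming that gene alone with the highest mean log2(intensity + 1) over 7 arrays. In all 44 of the 48 genes had such a probe set, among 18193 genes in the table, and all 44 passed the filter on dim probe sets, among 11460 genes tested. Arpc1b is named only by probe sets that also name a second gene, and it was not analysed here, nor were Arpc3, Actr2 and Rock2. CD4+ T cells were sorted on CD3 and CD4 from the peripheral nodes of males at 3 weeks of age, after removal of cells bearing B220, CD8, CD11b, CD11c or NK1.1. The Sf.Il2-/- group (3 arrays) combined the scurfy mutation with a null Il2 gene (B6.129P2-Il2tm1Hor/J), and so shares the Foxp3 mutation with the Sf group. The Sf group (3 arrays) came from scurfy mice (B6.Cg-Foxp3sf/J), whose Foxp3 mutation is carried in all their cells. The B6 group was a single array of RNA from the nodes of 2 pooled C57BL/6 mice, so every comparison with B6 rests on 1 array that is assumed to vary like the mutant arrays. Foxp3 is the transcription factor of regulatory T cells and Il2 encodes the T cell growth factor interleukin-2.

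A T cell crawls by pushing out a sheet of branched actin at its front and contracting actomyosin at its rear. Chemokine receptors and the T cell receptor activate exchange factors such as DOCK2, which load Rac and Cdc42 with GTP. These GTPases switch on the WAVE and WASP proteins, which in turn start new branches through the Arp2/3 complex, while RhoA and its kinases drive contraction. Rap1 and its partners RAPL and MST1 raise integrin adhesion, and talin and kindlin-3 tie integrins to actin. Loss of DOCK8, WASP, coronin 1A, RhoH or MST1 causes immunodeficiency in humans.

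Median intensity lay between 29.3 and 32.4 in the 7 arrays and the upper quartile between 110 and 145. By correlation over dim probe sets the arrays fell into 2 array sets that the labels do not name, with Sf.Il2-/- 1, Sf.Il2-/- 2, Sf 1 and Sf 2 in set 1 and Sf.Il2-/- 3, Sf 3 and B6 in set 2. The division is uncertain, since the lowest correlation within sets (0.553) did not exceed the highest between them (0.554). The array labelled Sf 3 stood apart from its group. Over the tested genes its correlation was 0.933 and 0.950 with the other Sf arrays, which correlated at 0.988 with each other, and 0.953, 0.954 and 0.971 with the Sf.Il2-/- arrays. Il2 signal was 7.17, 8.20 and 7.74 in Sf.Il2-/-, and 5.39, 5.09 and 7.35 in Sf, and 5.22 in B6, in log2(intensity + 1). The position of the Il2 probes against the allele's disruption was not known here, so this signal does not check the null allele. Foxp3 signal was 4.41, 4.20 and 4.24 in Sf.Il2-/-, and 6.04, 5.87 and 6.32 in Sf, and 7.25 in B6, so Sf 3 lay with the Sf arrays for Foxp3 and with the Sf.Il2-/- arrays for Il2. Counts of calls are therefore given with and without Sf 3. Neutrophil transcripts were highest in Sf.Il2-/- 2 and Sf 1, where the summed intensity of 6 of 8 neutrophil markers was 529 and 295, against 138 to 183 in the other arrays. Summed markers of CD4 T cells themselves (9 of 10 found, 0 past the threshold in any comparison) were 20050 to 21852 in Sf.Il2-/-, 12387 to 17312 in Sf and 24277 in B6. They therefore ran in the same order as most actin and migration genes below, and their part in these results was not tested. Summed B cell markers (6 of 7 found) ran in that order too, at 1917 to 2166 in Sf.Il2-/-, 970 to 1768 in Sf and 3066 in B6. Ighm made up nearly all of the sum, and 3 of the 6 genes read under 5 on the log2 scale in all arrays. The order was that of Ighm and not of the list. Cd79a and Ms4a1 were lowest in B6 and Cd79b was highest in Sf. Pax5 was higher in Sf 1 and Sf 2 (5.86 and 6.06) than in B6 (5.33).

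Most of these genes were bright, with 32 of the 44 among the top 10% of tested genes by mean, and they moved together from array to array. Each gene was set against its own mean over the 7 arrays. The median deviation of the 44 genes on the log2 scale was 0.10, 0.00 and 0.10 in Sf.Il2-/- 1, 2 and 3, and -0.23, -0.48 and 0.01 in Sf 1, 2 and 3, and 0.33 in B6. For all 11460 genes the same medians were -0.03, -0.02 and 0.11 in Sf.Il2-/-, and -0.13, -0.25 and 0.13 in Sf, and 0.16 in B6. Thus B6 was high and Sf 1 and Sf 2 low over all genes as well, and the actin genes shared in this with larger deviations in B6, Sf 1 and Sf 2. In single arrays, 27, 22 and 32 of the 44 genes lay above their own mean in Sf.Il2-/- 1, 2 and 3, against 9, 5 and 23 in Sf 1, 2 and 3 and 38 in B6.

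**Figure D1:**
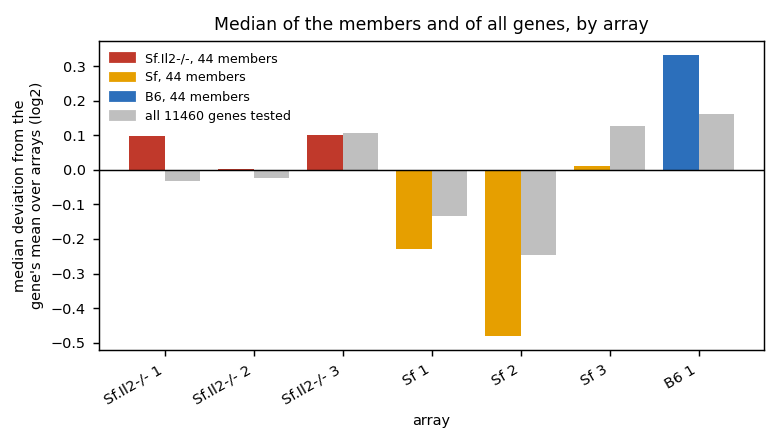
Median deviation of the 44 actin and migration genes (coloured bars) and of all 11460 genes tested (grey bars) from each gene's mean over 7 arrays, in log2 units, for each array. The coloured bar is highest in B6 (0.33) and lowest in Sf 2 (-0.48), and the grey bars have the same sign except in Sf.Il2-/- 1 and Sf.Il2-/- 2.

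**Figure D2:**
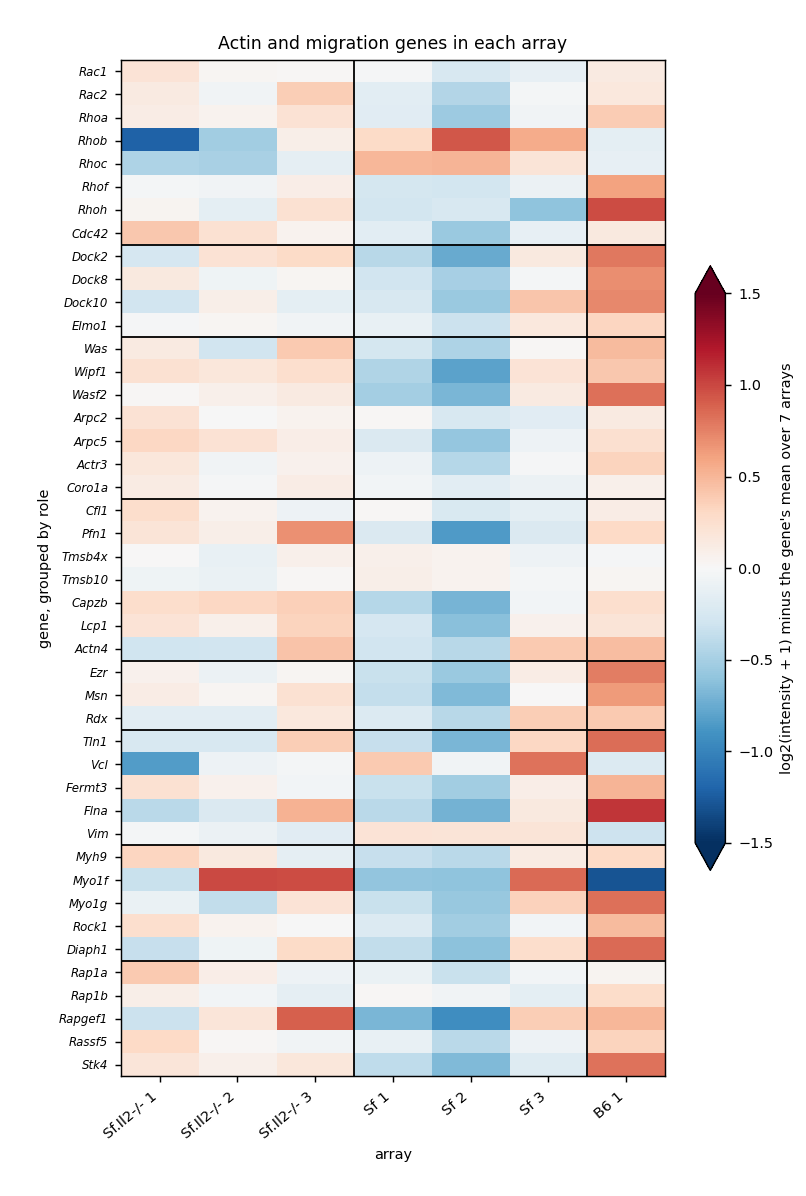
Heat map of log2(intensity + 1) minus the gene's mean over 7 arrays for each of the 44 genes (rows, with lines between role groups) in each array (columns). Most rows are red in B6 and blue in Sf 1 and Sf 2, while Rhob, Rhoc and Vim are red in all Sf arrays and Myo1f is blue in B6.

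Setting Sf.Il2-/- against Sf addresses the absence of IL-2 on a Foxp3-mutant background. Values were mostly somewhat higher in Sf.Il2-/-, with 38 genes above 0 and 6 below, where 62.2% and 37.8% of all genes lay above and below. None of the 44 passed the threshold (limma, Benjamini-Hochberg adjusted p under 0.05 over all 11460 genes), against 0.279% of all genes (0.0436% higher and 0.236% lower). At an unadjusted p under 0.05 there were 12 of 44, against 7.92% of all genes. The differences ran from -1.14 for Rhob to 0.76 for Pfn1, with a median of 0.29 on the log2 scale, against 0.08 for all genes. The Sf.Il2-/- arrays all lay above the Sf arrays for 14 genes and all below for 3 (Rhob, Rhoc and Vim), where 8.39% and 3.72% of all genes did so. After quantile normalization, which gives every array the same distribution, the median was 0.02, with 25 genes above 0 and 19 below, and none passed, against 0.287% of all genes. None passed with the replicate numbers as a block (0.524% of all genes) or the array set as a block (0.646%). Sf 3 was singled out because it correlated better with the Sf.Il2-/- arrays than with its own group. Leaving it out therefore favours differences between these groups, and it leaves Sf in array set 1 alone. Without Sf 3, 10 of 44 passed, against 7.43% of all genes. These were Wipf1, Wasf2, Arpc5, Pfn1, Capzb, Lcp1, Msn, Fermt3 and Stk4, all higher, and Rhoc, lower. In array set 1 alone, a setting chosen after seeing the data, Wipf1 and Capzb were higher and Rhob and Rhoc lower, 4 in all against 5.11% of all genes.

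Sf was compared with B6 to ask what the Foxp3 mutation changes. Most of the machinery read lower in Sf, with 37 of 44 genes below 0 and 7 above (65.3% and 34.7% of all genes), and Stk4 and Rhoh fell. These 2 of 44 compare with 2.47% of all genes past the threshold (1.31% higher and 1.16% lower). At an unadjusted p under 0.05 there were 22 of 44, against 22.5% of all genes. The median difference was -0.55, against -0.25 for all genes, and single genes ran from -1.40 for Flna to 1.17 for Myo1f. The Sf arrays all lay below the B6 array for 37 genes and all above it for 5 (Rhob, Rhoc, Vcl, Vim and Myo1f), where 46.9% and 19.6% of all genes did so. Quantile normalization moved the median of all genes to 0.02 and that of the 44 to -0.12, with 28 below 0 and 16 above, and it called Stk4 lower and Vim higher (2 of 44, against 4.83% of all genes), with Rhoh no longer past the threshold (adjusted p = 0.249). Over all genes it changed the split of calls to 391 higher and 163 lower, against 150 higher and 133 lower as deposited. With the replicate numbers as a block 11 genes passed, all lower: Dock2, Wasf2, Ezr, Msn, Tln1, Flna, Myo1g, Diaph1 and Rapgef1 beside Rhoh and Stk4, against 16.4% of all genes. With the array set as a block Rhoh and Stk4 alone passed, against 5.28%. Without Sf 3, which leaves no Sf array in the array set of B6, 26 passed (1 higher, 25 lower), against 30% of all genes, and without Sf 1 none passed, against 1.02% of all genes.

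Sf.Il2-/- was then set against B6, the same array as above, so these differences are not independent of those of Sf. Of the 44 genes 37 lay below 0 and 7 above (60.3% and 39.7% of all genes), with a median of -0.26 against -0.14 for all genes. None passed the threshold by limma, against 2.69% of all genes (1.49% higher and 1.2% lower), and 11 had an unadjusted p under 0.05, against 18.6%. The lowest adjusted p was 0.132, for Rhoh. The Sf.Il2-/- arrays all lay below B6 for 26 genes and all above it for 3 (Capzb, Vim and Myo1f), where 44.5% and 24.7% of all genes did so. With the replicate block Tln1, Flna, Myo1g and Diaph1 passed, all lower, 4 of 44 against 10.6% of all genes. After quantile normalization Ezr and Stk4 were lower and Vim higher, 3 of 44 against 6.3% of all genes. With only the Sf.Il2-/- and B6 arrays in the fit, Wasf2, Ezr and Stk4 passed, also 3 of 44, against 7.37% of all genes. After quantile normalization the split of calls over all genes was 484 higher and 239 lower, against 171 and 137 as deposited. Without Sf 3, which enters through the filter and the estimate of the spread, 7 passed, against 13.1% of all genes, and with the array set as a block 1 passed, against 6.29%.

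**Figure D3:**
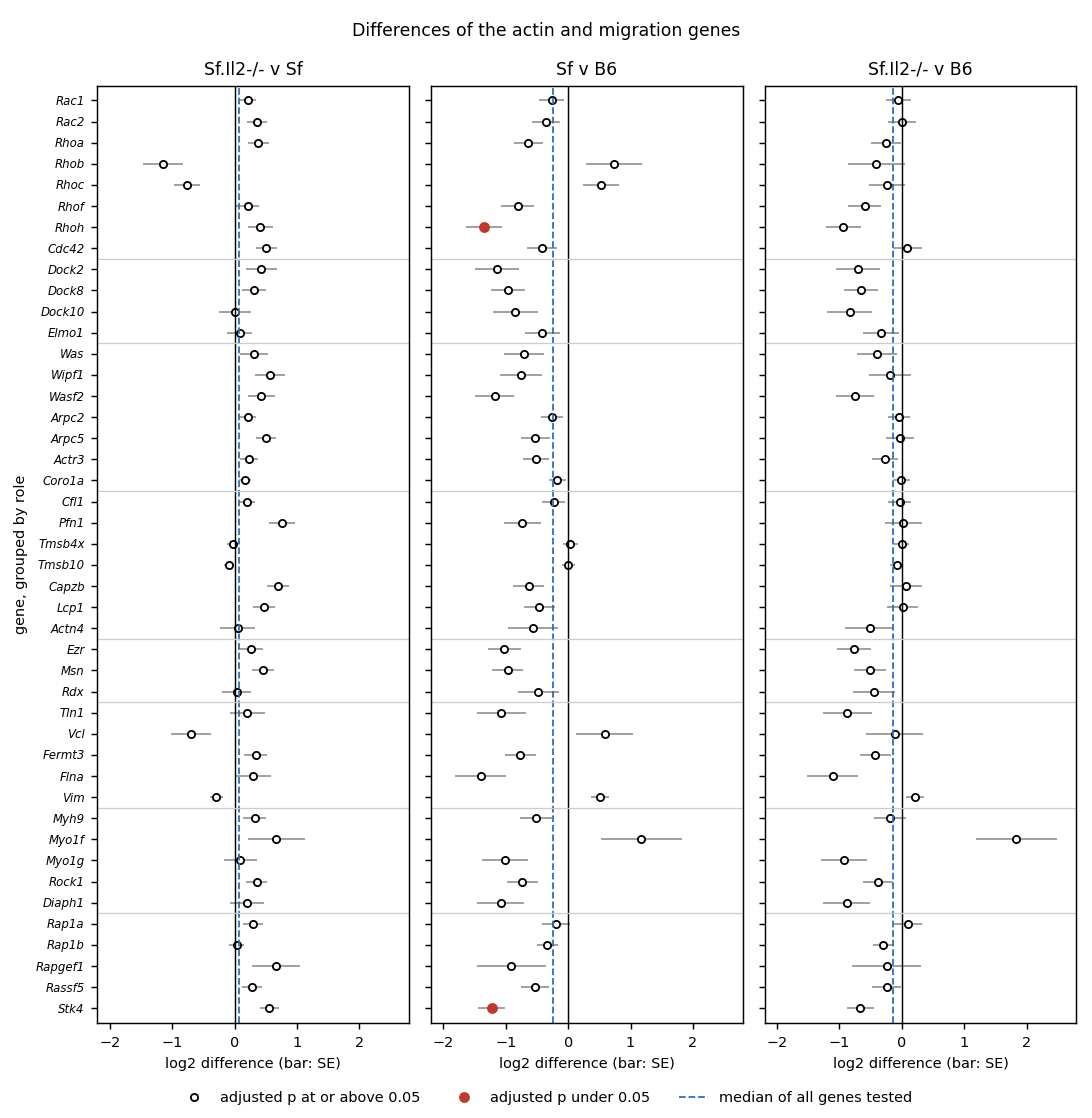
Log2 differences of the 44 genes with their standard errors in the 3 comparisons, in the order of the role groups, with the median of all genes tested as a dashed line. Filled points, Rhoh and Stk4 in Sf v B6, have an adjusted p under 0.05, and all other points are open.

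The Rap1 pathway held the member with the lowest p of all, Stk4, which encodes the kinase MST1, a partner of RAPL in lymphocyte adhesion and trafficking. Stk4 read 11.51, 11.40 and 11.50 in Sf.Il2-/-, and 10.94, 10.66 and 11.14 in Sf, and 12.14 in B6. The 3 groups did not overlap, with B6 highest, Sf.Il2-/- between and Sf lowest. Relative to B6, Stk4 fell by 1.22 ± 0.22 log2 units in Sf (SE, 3 arrays against 1), or 2.34-fold (adjusted p = 0.024 by limma). It was 0.67 ± 0.22 log2 units lower than B6 in Sf.Il2-/- as well, short of the threshold (adjusted p = 0.156), and the difference of Sf.Il2-/- from Sf was 0.56 ± 0.15 (adjusted p = 0.365). Both other probe sets of Stk4 had the same signs, at -1.45 and -1.12 in Sf v B6. Within array set 2 the single Sf array lay 1.00 below B6. The fall of Stk4 in Sf kept its sign under all 17 alternatives, with differences of -1.34 to -0.92, and passed the threshold under 12 of them, the highest adjusted p being 0.0923 with only the Sf and B6 arrays in the fit. Leaving out Sf 1 gave an adjusted p of 0.0691.

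Rassf5, which encodes RAPL, read 11.46, 11.18 and 11.12 in Sf.Il2-/-, and 11.05, 10.76 and 11.09 in Sf, and 11.50 in B6. Its difference in Sf v B6 was -0.53 ± 0.23 (adjusted p = 0.207). At their chosen probe sets Rap1a and Rap1b, the GTPases themselves, varied little, between 11.14 and 11.86 and between 11.69 and 12.12 over the 7 arrays. Their other probe sets gave Sf v B6 differences of -0.25 for Rap1a and -0.54 and -0.70 for Rap1b. Rapgef1, whose product activates Rap1, spread more widely, with its highest value of 9.83 in Sf.Il2-/- 3 and its lowest in Sf 2, so its standard error was 0.55 in Sf v B6.

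Among the 8 member genes that encode GTPases of the Rac1 and Cdc42 kind, Rhoh fell in Sf and Rhob and Rhoc ran against the rest. Rhoh encodes a GTPase of blood cells that does not hydrolyse GTP and is needed for T cell receptor signalling. It read 9.40, 9.22 and 9.59 in Sf.Il2-/-, and 9.08, 9.12 and 8.76 in Sf, and 10.34 in B6. Both mutant groups lay below B6, with Sf lowest, and no arrays overlapped between groups. Relative to B6, Rhoh fell by 1.35 ± 0.28 log2 units in Sf (SE, 3 arrays against 1), or 2.55-fold (adjusted p = 0.0423 by limma), and the difference in Sf.Il2-/- was -0.94 ± 0.28 (adjusted p = 0.132). Within array set 2 Rhoh was 1.58 lower in the Sf array than in B6. The call was close to the threshold and was lost under 10 of 17 alternatives, among them quantile normalization (-0.79, adjusted p = 0.249), leaving out Sf 1 (adjusted p = 0.121) and leaving out any 1 of the Sf.Il2-/- arrays (adjusted p = 0.0658 to 0.0847). The difference ran from -1.42 to -0.79 over the alternatives. Differences at its dimmer probe sets, which read under 6 in every array, were -1.49 and -0.71.

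Rhoc, a relative of RhoA, read 5.69, 5.66 and 6.02 in Sf.Il2-/-, and 6.66, 6.66 and 6.35 in Sf, and 6.03 in B6. Its Sf arrays were the high ones, and Sf.Il2-/- arrays lay at or below B6. The difference of Sf.Il2-/- from Sf was -0.76 ± 0.21 (adjusted p = 0.355), with -0.98 in array set 1 and -0.33 in set 2. Rhob, an endosomal GTPase whose transcript responds quickly to stimulation, was named after its values were seen. It had the same order, at 5.71, 6.40 and 7.01 in Sf.Il2-/-, and 7.21, 7.86 and 7.48 in Sf, and 6.78 in B6, and differed by -1.14 ± 0.32 in Sf.Il2-/- v Sf (adjusted p = 0.373). Rac1 read at most 11.45, in Sf.Il2-/- 1, and lowest in Sf 2. Rac2 (the Rac of blood cells) lay between 11.13 and 11.94, Cdc42 between 10.79 and 11.76 and Rhoa between 10.38 and 11.31. Rhof, a GTPase that induces filopodia, lay at 9.50 in B6 and lower in all mutant arrays, with -0.81 ± 0.26 in Sf v B6 (adjusted p = 0.126).

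The RefSeq promoters of the called genes and of Vcl are shown because actin genes are classic targets of the serum response factor, which binds the CArG box. The 300 bases run from 250 before to 50 after the start of the gene on build GRCm38.p6, and capitals mark CArG boxes, sought on both strands. Rhoh (chr5:65863334-65863633, plus strand) and Stk4 (chr2:164073888-164074187, plus strand) hold no box in this window. Vcl (chr14:20929148-20929447, plus strand) is the 1 of 43 members matched in the table that does, with the first base of its box at position -227 relative to the start.
Stk4: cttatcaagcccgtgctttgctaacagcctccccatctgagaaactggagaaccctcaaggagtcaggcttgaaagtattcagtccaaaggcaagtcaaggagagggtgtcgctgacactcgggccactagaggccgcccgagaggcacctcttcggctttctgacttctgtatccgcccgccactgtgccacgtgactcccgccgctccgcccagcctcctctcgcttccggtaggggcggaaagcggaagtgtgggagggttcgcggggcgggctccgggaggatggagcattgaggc
Rhoh: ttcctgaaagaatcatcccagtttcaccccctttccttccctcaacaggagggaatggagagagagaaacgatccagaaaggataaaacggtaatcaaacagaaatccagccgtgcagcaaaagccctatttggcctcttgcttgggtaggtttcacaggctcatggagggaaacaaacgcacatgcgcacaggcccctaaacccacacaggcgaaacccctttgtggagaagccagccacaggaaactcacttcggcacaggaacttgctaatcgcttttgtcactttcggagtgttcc
Vcl: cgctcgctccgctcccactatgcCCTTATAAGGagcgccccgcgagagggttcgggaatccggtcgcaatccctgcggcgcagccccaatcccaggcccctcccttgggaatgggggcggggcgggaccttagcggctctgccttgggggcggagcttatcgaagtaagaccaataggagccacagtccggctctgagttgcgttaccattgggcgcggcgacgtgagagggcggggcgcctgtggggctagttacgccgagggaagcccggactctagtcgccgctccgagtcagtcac
At least 1 box stood in a promoter of 2.33% of the matched members and of 5.68% of the 88 matched other pathway genes (Arpc4, Myo1e, Myl6, Actg1 and Tiam1), against 1.81% of all 27025 genes in the table. A match of letters is a description and not a binding site.

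The DOCK exchange factor genes and Elmo1 read lower than B6 in every mutant array, where 46.9% of all genes had all Sf arrays below B6 and 44.5% all Sf.Il2-/- arrays, and 0 of 4 passed the threshold. Dock2, the main Rac activator of lymphocytes, read 10.28, 10.76 and 10.82 in Sf.Il2-/-, and 10.12, 9.78 and 10.68 in Sf, and 11.33 in B6. Its Sf v B6 difference was -1.13 ± 0.35 (adjusted p = 0.114), with -0.65 within array set 2. Dock8, which activates Cdc42, read 9.96, 9.75 and 9.85 in Sf.Il2-/-, and 9.53, 9.31 and 9.79 in Sf, and 10.51 in B6. Its difference was -0.97 ± 0.27 in Sf v B6 (adjusted p = 0.0922) and -0.66 ± 0.27 in Sf.Il2-/- v B6 (adjusted p = 0.234). In both genes the mutant groups overlapped each other, and B6 stood above them. Dock10 lay between 9.41 and 10.38 in mutant arrays and at 10.68 in B6, and Elmo1, the adaptor that works with DOCK2, between 8.03 and 8.51 against 8.68.

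In the Arp2/3 group, 7 of 10 genes were measured and 0 passed. At the chosen probe sets, as deposited, all 7 were lower in Sf than in B6 (65.3% of all genes). All 7 were higher in Sf.Il2-/- than in Sf (62.2% of all genes). Wasf2 encodes WAVE2, the activator of Arp2/3 at the leading edge. It read 10.58, 10.65 and 10.70 in Sf.Il2-/-, and 10.06, 9.88 and 10.70 in Sf, and 11.39 in B6. The difference was -1.18 ± 0.31 in Sf v B6 (adjusted p = 0.0779), and -0.69 within array set 2, since Sf 3 reached the Sf.Il2-/- values. Arpc5, a subunit of the complex, behaved otherwise, reading 11.59, 11.49 and 11.37 in Sf.Il2-/-, and 11.06, 10.69 and 11.20 in Sf, and 11.51 in B6. Here Sf.Il2-/- arrays surrounded B6 and lay above every Sf array, with 0.50 ± 0.16 in Sf.Il2-/- v Sf (adjusted p = 0.43). Every Sf.Il2-/- array lay above every Sf array for 8.39% of all genes. After quantile normalization Arpc5 no longer read low in Sf, with 0.02 in Sf v B6 and 0.18 in Sf.Il2-/- v B6. The subunits Arpc2 (11.81 to 12.27) and Actr3 (11.27 to 12.03) and the regulator Coro1a (12.30 to 12.59) spanned narrow ranges at their chosen probe sets. At their dimmer probe sets the Sf v B6 differences were -0.91 for Arpc2, -0.57 and -0.61 for Actr3, and -1.67 and -0.29 for Coro1a. In Sf.Il2-/- v Sf the dimmer probe set of Arpc2 gave -0.48, against 0.22 at the chosen one. Those of Actr3 gave 0.34 and 0.38, and those of Coro1a 0.25 and 0.13. Was and Wipf1, encoding WASP and the protein that stabilises it, spanned 9.37 to 10.31 and 9.73 to 10.95, with their lowest values in Sf 2.

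Among proteins that handle actin itself, none of 7 genes passed, and as deposited profilin and capping protein were lowest in Sf. The thymosin genes Tmsb4x and Tmsb10, whose products bind actin monomers, lay between 13.26 and 13.44 and between 13.58 and 13.77 at their brightest probe sets. At the probe sets of Tmsb10 next in brightness every Sf array lay below B6, with Sf v B6 differences of -0.58 and -0.52. A dimmer one went the other way, at 7.99, 8.14 and 6.54 in Sf against 6.71 in B6 (0.84). The dimmest gave -0.67. Pfn1, whose product feeds actin monomers to growing filaments, read 12.01, 11.91 and 12.50 in Sf.Il2-/-, and 11.59, 10.97 and 11.60 in Sf, and 12.12 in B6. Capzb, a subunit of the protein that caps filament ends, read 11.28, 11.33 and 11.37 in Sf.Il2-/-, and 10.60, 10.32 and 10.98 in Sf, and 11.27 in B6. For both genes Sf was the low group as deposited, without overlap, and Sf.Il2-/- lay near B6. Of all genes 8.39% had every Sf.Il2-/- array above every Sf array, and 46.9% had every Sf array below B6. The differences of Sf.Il2-/- from Sf were 0.76 ± 0.21 for Pfn1 (adjusted p = 0.365) and 0.70 ± 0.18 for Capzb (adjusted p = 0.312, the lowest of any member in this comparison). Within array sets 1 and 2 they were 0.68 and 0.91 for Pfn1, and 0.85 and 0.40 for Capzb. After quantile normalization Capzb no longer read low in Sf, with 0.05 in Sf v B6 and 0.33 in Sf.Il2-/- v B6. Pfn1 kept its order, with -0.44 and 0.03. At the chosen probe sets Lcp1, encoding the bundling protein L-plastin, spanned 11.18 to 12.14. The severing protein gene Cfl1 spanned 11.90 to 12.40 and the crosslinker gene Actn4 9.11 to 9.99. The other probe set of Cfl1 read 10.68, 10.28 and 11.19 in Sf and 11.66 in B6, a difference of -0.94. It was 0.72 higher in Sf.Il2-/- than in Sf. That of Lcp1 gave -0.76 in Sf v B6.

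The ERM proteins ezrin, moesin and radixin tie actin to the membrane, and none of the 3 genes passed the threshold. Ezr read 10.80, 10.66 and 10.78 in Sf.Il2-/-, and 10.41, 10.19 and 10.86 in Sf, and 11.51 in B6. Msn, the main ERM gene of lymphocytes, read 11.51, 11.43 and 11.63 in Sf.Il2-/-, and 11.05, 10.73 and 11.41 in Sf, and 12.04 in B6. Both were lower than B6 in all 6 mutant arrays. Of all genes 46.9% had all Sf arrays below B6, and 44.5% all Sf.Il2-/- arrays. The Sf v B6 differences were -1.02 ± 0.27 for Ezr (adjusted p = 0.0798) and -0.97 ± 0.25 for Msn (adjusted p = 0.0766), with -0.65 and -0.63 within array set 2. Rdx spanned 9.35 to 10.16, with Sf 3 (10.13) close to B6.

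**Figure D4:**
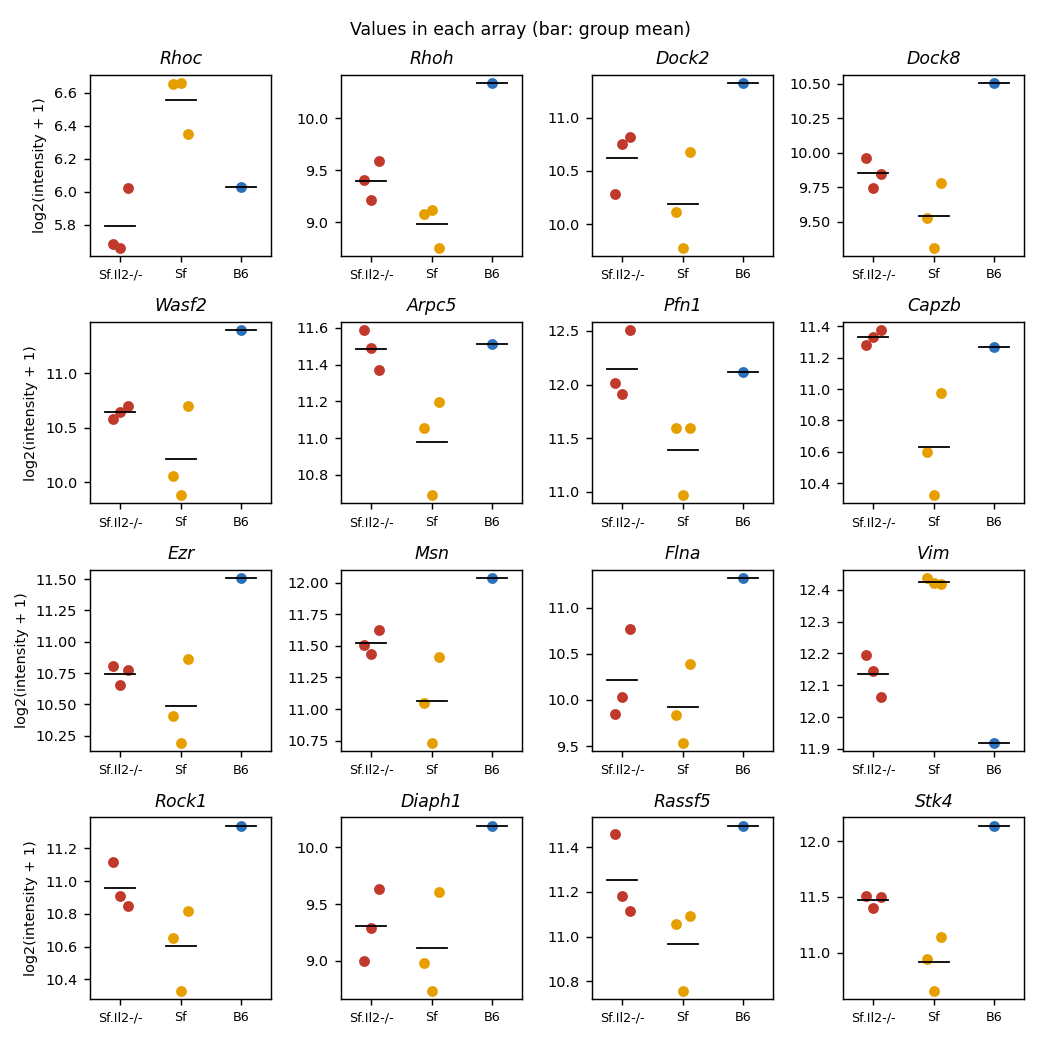
Values of 16 genes, the pair with the lowest p in each role group, in every array (points, log2(intensity + 1)) with the group mean as a bar. B6 lies above every mutant array in 11 panels, while Vim and Rhoc are highest in Sf and Arpc5, Pfn1 and Capzb are low only in the Sf points. Of all genes tested, 46.9% had every Sf array below B6 and 44.5% every Sf.Il2-/- array. The genes were chosen by p from these same values, so the 11 panels are not a share of the members.

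Of the genes that join integrins and membranes to the cytoskeleton, Flna had the largest difference from B6 of any member in Sf, and Vim ran the other way, with 0 of 5 past the threshold. Flna, which encodes the crosslinker filamin A, read 9.84, 10.03 and 10.77 in Sf.Il2-/-, and 9.83, 9.53 and 10.39 in Sf, and 11.32 in B6. In both mutant groups the array of set 2 was the highest, and B6, also of set 2, lay above it. The Sf v B6 difference was -1.40 ± 0.41 (adjusted p = 0.1), with -0.93 within array set 2. Vim, the intermediate filament gene, read 12.19, 12.14 and 12.06 in Sf.Il2-/-, and 12.44, 12.42 and 12.42 in Sf, and 11.92 in B6. The groups did not overlap, with Sf highest and B6 lowest. Its Sf v B6 difference was 0.51 ± 0.14 (adjusted p = 0.094), and 0.50 within array set 2. In Sf.Il2-/- v Sf it was -0.29 ± 0.10 (adjusted p = 0.478), with -0.26 and -0.35 in array sets 1 and 2. Stromal and endothelial markers, whose cells also contain vimentin, were summed over 8 of 8 genes at 254 to 340 in Sf.Il2-/-, 236 to 347 in Sf and 233 in B6, with 4 of the 8 under 5 on the log2 scale in all arrays. After quantile normalization Vim was higher than B6 in Sf by 0.79 (adjusted p = 0.00417) and in Sf.Il2-/- by 0.40 (adjusted p = 0.0471). As deposited, the other probe sets of Vim differed from B6 by 0.02 and -0.11 in Sf.Il2-/-, against 0.21 at the chosen one. In Sf they differed from B6 by 0.43 and 0.36. At the chosen probe sets Tln1, encoding talin, spanned 9.41 to 10.94 and Fermt3, encoding kindlin-3, 10.86 to 11.89, both highest in B6. The other probe sets of Tln1 disagreed. At 1 of them B6 was lowest (7.07), with differences from B6 of 0.25 in Sf and 0.28 in Sf.Il2-/-. The dimmest gave -1.65 and -1.34. Vcl, the vinculin gene, was the dimmest member, at 4.44 to 6.10.

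The myosin genes, Rock1 and Diaph1 made up 5 measured genes of a group of 6, and 0 passed. Rock1, a kinase downstream of RhoA, read 11.11, 10.91 and 10.85 in Sf.Il2-/-, and 10.65, 10.33 and 10.82 in Sf, and 11.34 in B6. Diaph1, encoding the formin mDia1, which elongates unbranched filaments, read 9.0, 9.28 and 9.63 in Sf.Il2-/-, and 8.98, 8.74 and 9.61 in Sf, and 10.19 in B6. B6 was highest for both, where 46.9% of all genes had all Sf arrays below B6 and 44.5% all Sf.Il2-/- arrays. The array of set 2 was the highest mutant array for Diaph1 in each group. The Sf v B6 differences were -0.74 ± 0.24 for Rock1 (adjusted p = 0.132) and -1.08 ± 0.38 for Diaph1 (adjusted p = 0.144). Myo1f, a class I myosin gene named after its values were seen, had the largest difference upward, at 7.68, 9.01 and 8.99 in Sf.Il2-/-, and 7.42, 7.40 and 8.86 in Sf, and 6.72 in B6. All mutant arrays lay above B6, but they split widely within each group. Summed natural killer cell markers (3 of 4 found) ran in the same group order, at 468 to 970 in Sf.Il2-/-, 178 to 360 in Sf and 136 in B6. Eomes, which made up most of that sum, read 8.82, 9.66 and 9.90 in Sf.Il2-/-, and 7.95, 7.29 and 8.46 in Sf, and 6.94 in B6, and 1 gene of the list passed the threshold in Sf.Il2-/- v B6. Ncr1 and Klra8 read under 5 in every array, and the order was that of Eomes and not of the list. Whether natural killer cells were present, and any part of theirs in the Myo1f values, was not tested. The differences from B6 were 1.84 ± 0.65 in Sf.Il2-/- (adjusted p = 0.182) and 1.17 ± 0.65 in Sf (adjusted p = 0.304), and 1 of its other probe sets gave -0.22 in Sf v B6. With the array set as a block the Sf.Il2-/- v B6 difference was 2.54 (adjusted p = 0.0278), the 1 member past the threshold under that setting. The related gene Myo1g went the other way, spanning 9.56 to 10.49 in mutant arrays against 10.97 in B6. Myh9, the non-muscle myosin IIA gene, spanned 10.95 to 11.68 in all arrays at its chosen probe set. Its other probe sets disagreed with each other, with Sf v B6 differences of -1.65, -1.49, -0.23 and 0.40.

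Other genes of the same pathways, 105 listed and 95 tested, held changes larger than those of the members. In Sf v B6, 1 rose and 4 fell, and in Sf.Il2-/- v B6 likewise 1 rose and 4 fell, where 2.47% and 2.69% of all genes passed. In Sf.Il2-/- v Sf 1 fell, against 0.279% of all genes. Median differences were 0.22 in Sf.Il2-/- v Sf, -0.59 in Sf v B6 and -0.41 in Sf.Il2-/- v B6, against 0.08, -0.25 and -0.14 for all genes. Tiam1, a Rac exchange factor, rose in both mutants, reading 10.58, 10.13 and 10.12 in Sf.Il2-/-, and 9.96, 9.58 and 10.37 in Sf, and 7.96 in B6. It was higher than B6 by 2.32 ± 0.34 in Sf.Il2-/- (adjusted p = 0.0114) and by 2.01 ± 0.34 in Sf (adjusted p = 0.0204). Its rise in Sf.Il2-/- passed under all 16 alternatives that could be fitted and that in Sf under 14.

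Actn1, encoding the crosslinker alpha-actinin 1, fell furthest in Sf. It read 9.26, 9.22 and 10.04 in Sf.Il2-/-, and 9.23, 9.03 and 9.62 in Sf, and 11.73 in B6. Relative to B6, it fell by 2.22 ± 0.37 in Sf.Il2-/- (adjusted p = 0.0182) and fell by 2.44 ± 0.37 in Sf (adjusted p = 0.0133), and mutant groups overlapped. The Rap1 exchange factor genes Rasgrp2 and Rapgef6 fell too, while the member Rapgef1 did not pass in either comparison with B6. Rasgrp2 read 8.76, 8.38 and 9.50 in Sf.Il2-/-, and 9.07, 8.89 and 9.56 in Sf, and 11.21 in B6, with differences from B6 of -2.33 ± 0.43 in Sf.Il2-/- (adjusted p = 0.0263) and -2.03 ± 0.43 in Sf (adjusted p = 0.043). Rapgef6 was nearly level in the mutants, at 10.41, 10.40 and 10.45 in Sf.Il2-/-, and 10.46, 10.33 and 10.60 in Sf, and read 11.52 in B6 (adjusted p = 0.0336 and 0.0381). Arhgef18, a guanine nucleotide exchange factor gene, read 8.96, 9.26 and 9.45 in Sf.Il2-/-, and 8.97, 8.78 and 9.58 in Sf, and 10.97 in B6. Its differences were -1.75 ± 0.35 in Sf.Il2-/- (adjusted p = 0.037) and -1.86 ± 0.35 in Sf (adjusted p = 0.0271), and a mean over its probe sets gave -1.08 and -1.03, neither past the threshold. Of 17 alternatives, the calls in Sf.Il2-/- and Sf were lost under 2 and 1 for Actn1, 7 and 5 for Arhgef18, 8 and 10 for Rapgef6, and 3 and 6 for Rasgrp2. Leaving out Sf 1 lost the Sf calls of Arhgef18, Rapgef6 and Rasgrp2 (adjusted p = 0.0812, 0.136 and 0.0946).

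Capg, which encodes a capping protein of filament ends, was the 1 pathway gene past the threshold between the mutants. At an unadjusted p under 0.05 by limma there were 15 of the 95 other pathway genes, against 7.92% of all genes. It read 8.34, 8.25 and 8.72 in Sf.Il2-/-, and 9.77, 9.60 and 9.74 in Sf, and 8.47 in B6. Its Sf arrays stood above all others, and Sf.Il2-/- lay around B6. In Sf.Il2-/- it fell by 1.27 ± 0.20 relative to Sf (adjusted p = 0.045), with -1.39 in array set 1 and -1.03 in set 2, and it passed under 9 of 18 alternatives. Leaving out any single Sf or Sf.Il2-/- array except Sf 3 lost the call, with adjusted p between 0.104 and 0.29. Actb and Actg1, the actin genes themselves, lay between 13.24 and 13.41 and between 12.77 and 13.06 in all 7 arrays.

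**Figure D5:**
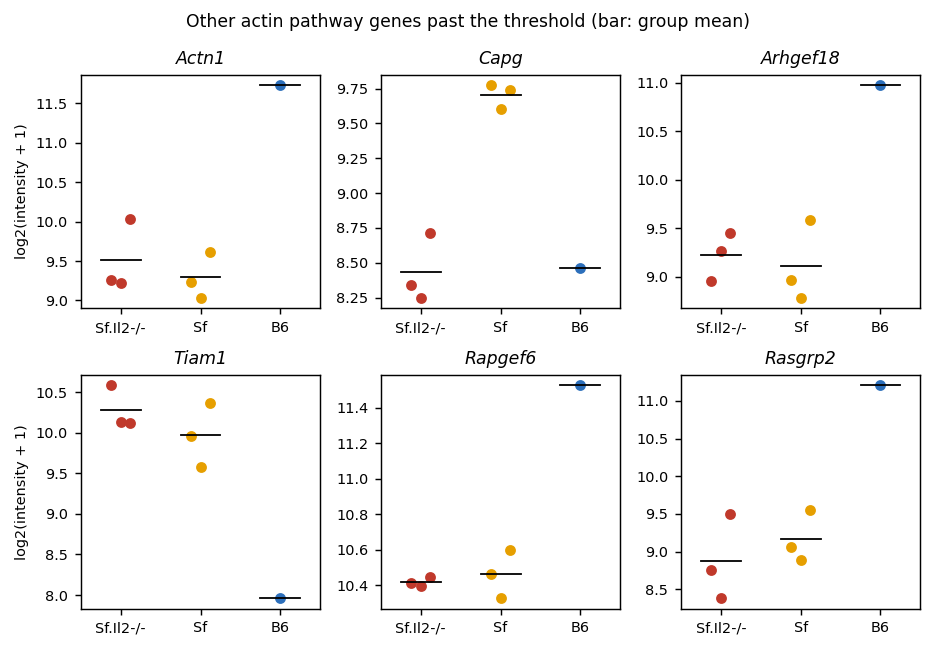
Values of the 6 pathway genes outside the 48 that passed the threshold in any comparison, in every array (points, log2(intensity + 1)), with the group mean as a bar. B6 stands above all mutant arrays for Actn1, Arhgef18, Rapgef6 and Rasgrp2 and below them for Tiam1, while Capg is high in Sf alone.

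Of 68 further probe sets of the members, 62 of 34 genes were bright enough to read. They had the sign of the gene's chosen probe set for 43 of 62 in Sf.Il2-/- v Sf, 55 of 62 in Sf v B6 and 53 of 62 in Sf.Il2-/- v B6. For 11 members the chosen probe set has a suffix (_s_at or _x_at) that marks probes shared with other transcripts, Stk4 and Vim among them. In these bulk samples, fewer cells of a kind and less RNA per cell cannot be told apart. The arrays' number limits the precision, and p-values measure the spread between the mutant arrays.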

How the data were processed

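The authors deposited 1 table of intensity per probe set and array on a linear scale (45037 probe sets, 7 arrays). The submitters' processing notes list GCRMA and GCOS, and their versions and order are not given in the sources used here. Of the probe sets 34945 name 1 gene, 932 several and 9160 none. Symbols were updated through Entrez numbers for 34741 of them (GRCm38.p6 annotation).

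Values were taken as log2(intensity + 1), with the brightest probe set per gene. Genes whose highest group mean was at least 5 on the log2 scale were tested (11460). The comparisons used limma 3.58.1 under R 4.3.3 (lmFit on 3 group means over 7 arrays, eBayes with an intensity trend, 4 residual and 9.57 total degrees of freedom), with Benjamini-Hochberg adjustment over all genes at 0.05. Values are given in every array for members past the threshold and for the pair with the lowest p in each role group, and others by range. Rhob and Myo1f were added after their values were seen. Members, lists and tests were chosen with earlier results of these data known. The fit was tested on simulated data in which 200 genes changed and arrays varied independently. Changes of 2-fold were recovered for 43.5% of these genes in Sf.Il2-/- v Sf, 0% in Sf v B6 and 3.5% in Sf.Il2-/- v B6. For 4-fold changes the shares were 98.5%, 88% and 90%. A member that did not pass is therefore not shown to be unchanged.

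Same-numbered mutant arrays deviated together (correlations of 0.301, 0.211 and 0.505). The main fit used no pairing, and the numbers entered as a block only in an alternative fit. Sf 2 also correlated with Sf.Il2-/- 1 (0.333) and Sf 1 with Sf.Il2-/- 2 (0.111), so within array set 1 the numbers do not single out pairs. The titles state no pairing and the single B6 array could not be checked. Figures used matplotlib 3.10.9 in Python 3.11.15.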

Additional observations from a re-analysis of the deposited data

How the results depend on the processing

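The filter was dropped or set at 6. Values were quantile-normalized, median-centred or given a pseudocount of 16. Probe sets were averaged, the eBayes trend was dropped, only the groups compared were fitted, and the replicate number or array set entered as a block. Each mutant array was left out in turn, and Sf.Il2-/- 2 with Sf 1 together. Array set 1 alone was chosen after seeing the data. In Sf.Il2-/- v Sf no member passed except without Sf 3 (0 to 10 over the replicates left out) and in array set 1 alone (4). In Sf v B6 the count of 2 stood beside 283 of all 11460 genes. It became 0 with no filter (161 of all 18193 genes), 0 without a trend (203 of 11460) and 1 with the mean of probe sets (188 of 10232). It was 0 with only the groups compared (184 of 11304) and 0 without Sf.Il2-/- 2 and Sf 1 (282 of 11407). With the replicate block it was 11. Over the replicates left out it ran from 0 (without Sf 1, 116 of 11409) to 26 (without Sf 3, 3523 of 11737). In Sf.Il2-/- v B6 the count of 0 became 3 after quantile normalization, 3 with only the groups compared, 4 with the replicate block and 1 with the array set block, and ran from 0 to 7 (without Sf 3). The replicate block changed no other call of a member, and its counts over all genes were 60, 1880 and 1212, against 32, 283 and 308 without it.

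The members' median minus that of all genes was 0.21, -0.30 and -0.13 in Sf.Il2-/- v Sf, Sf v B6 and Sf.Il2-/- v B6. The first turned to -0.012 after quantile normalization and was 0.13 with the mean of probe sets, with 0.13 to 0.25 over the replicates left out. The second was -0.46 with no filter, -0.22 with the filter at 6, -0.14 after quantile normalization and -0.42 with the mean of probe sets, with -0.39 to -0.23 over the replicates left out. The third was -0.23 with no filter, -0.051 with the filter at 6, -0.057 with the array set block and -0.23 with the mean of probe sets, with -0.18 to -0.09 over the replicates left out. The cause was not tested. Of 790, 746 and 746 pairs of a member and an alternative, 0 reversed a call, and 42, 18 and 41 changed sign with neither value past the threshold. Signal limits Vcl, which read under 5 in 1 array.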
